A study of Mus musculus with 2 samples.

Results

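The SR and hnRNP genes encode the RNA-binding proteins that decide, exon by exon, how a pre-mRNA is spliced. SR proteins carry an RNA recognition motif and a tail rich in arginine and serine, bind enhancer sequences within exons and recruit the U1 and U2 snRNPs to the neighbouring splice sites. The heterogeneous nuclear ribonucleoproteins (hnRNPs) coat the nascent transcript and often oppose SR proteins at the same exon. In the developing brain, alternative splicing changes widely as progenitors become neurons, and members of both families are among its regulators. Members were taken here by symbol alone, as Srsf followed by digits or any symbol beginning with Hnrnp, which gave 11 SR genes and 20 hnRNP genes, 31 of the 24411 genes counted.

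They were measured in the brain of mouse embryos at embryonic day 16.5, from which tissue was cut by laser capture microdissection and sequenced as bulk RNA. One piece was the subventricular zone (SVZ), which lies next to the ventricular zone and holds dividing progenitors, and the other the cortex, where newborn neurons settle. No treatment or genetic change is given for either area, and the sources used here do not say how many embryos stood behind each library, nor their sex or strain. The study used these libraries as the comparison for a light-directed barcoding method, whose libraries were not analysed here. There was 1 library for each area, so no difference below has a replicate check and no test between the areas was possible.

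The SVZ library held 51435667 gene-assigned reads and the cortex library 22050693, and values are given as counts per 1000000 gene-assigned reads (CPM), of which 1 read was worth 0.0194 and 0.0453. Brackets after a log2 ratio of SVZ to cortex hold its exact 95% Clopper-Pearson interval, which covers counting error only, since PCR copies of a molecule could not be set apart. The area labels were checked against marker genes. Whether the piece labelled SVZ also took in the ventricular zone next to it was not tested. All 8 apical progenitor markers were higher in the SVZ library (6529 against 130 CPM summed), as were all 4 intermediate progenitor markers (894 against 40.6 CPM) and all 7 proliferation markers (1855 against 118 CPM), and all 10 neuronal markers were higher in the cortex library (11910 against 3241 CPM). Genes of other cells were also unequal. The 6 microglial markers, which summed to 50.3 CPM in the SVZ and 5.53 CPM in the cortex, were all higher in the SVZ. Of 3 choroid plexus markers (243 and 0.726 CPM), 2 were higher in the SVZ and 1 was at 0 in both libraries, and Ttr alone had 240 CPM in the SVZ. The 5 vessel markers (64.4 and 55.6 CPM) were mixed, with 2 higher in the SVZ and 3 in the cortex. Of 4 meningeal markers (3.402 and 6.98 CPM), 1 was higher in the SVZ, 2 in the cortex and 1 too low to compare. Of 4 erythroid markers (14.8 and 7.48 CPM), 3 were at 0 in both libraries and 1 was higher in the SVZ. The part of these cell types in the values below was not tested, and in bulk tissue fewer cells of a type and less RNA per cell cannot be told apart.

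Some of these genes share long runs of sequence with processed pseudogenes elsewhere in the genome, and a read from such a run is left out of the gene's count when it maps to several places. Every 75-base window, the length of 1 read, of each member's principal transcript was looked for in the annotated transcripts of all other genes outside its own locus (GENCODE M21, GRCm38). No window was shared for 18 members, and over 10% of windows were shared for 9. Hnrnpa1 shared 53.5% of all its windows, Hnrnpf 47.0%, Hnrnpk 29.0% and Hnrnpa3 27.9%. By coding windows Hnrnpa3 and Hnrnpa1, whose products bind splicing silencers, stood at the extreme. The Hnrnpa3 coding window held by the most other genes is printed here. It lies across a splice junction at chr2:75661515-75661671 on the plus strand and was found in 18 other genes, 17 of them pseudogenes.
Hnrnpa3: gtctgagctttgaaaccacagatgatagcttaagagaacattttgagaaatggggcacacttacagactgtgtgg

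All of the 997 coding windows of Hnrnpa3 and all of the 886 coding windows of Hnrnpa1 occurred in at least 1 other gene. The share was 91.9% for the coding windows of Hnrnpf, 82.8% for Srsf3, 64.9% for Srsf10 and 63.8% for Hnrnpk. No window was shared for Srsf1, Srsf2, Srsf7, Srsf9 or Hnrnpm. The levels of Hnrnpa1 and Hnrnpa3 in particular are uncertain, because their counts can rest only on reads from outside the coding sequence or on those that still map to a single place. The plot of shared coding windows sets these shares beside the level of each gene in the SVZ library, per kilobase of its transcript. Over the 31 genes, Spearman's rho between mean CPM and the share of all windows was -0.0097.

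**Figure D1:**
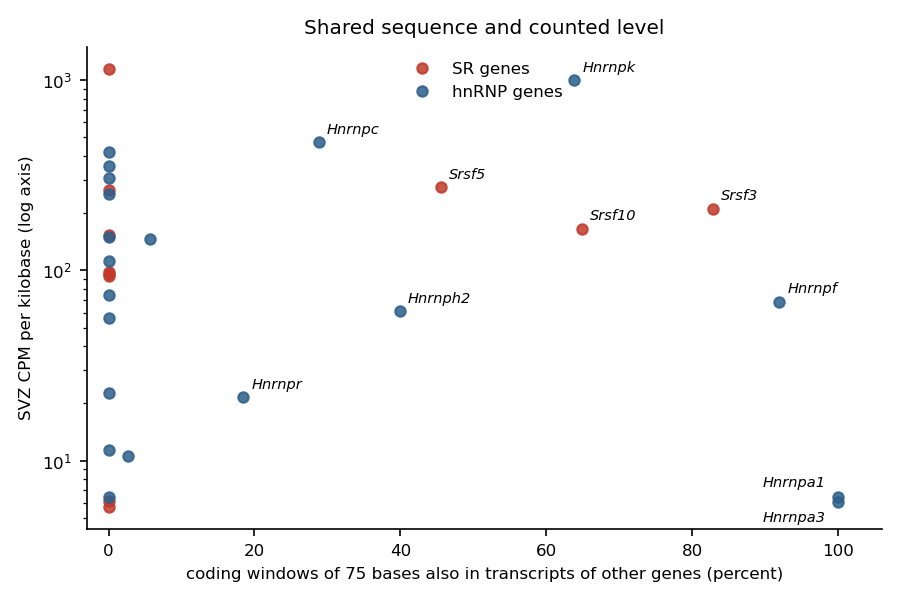
Share of the 75-base coding windows of each member that also occur in an annotated transcript of another gene (horizontal axis, %) against its SVZ level in CPM per kilobase of principal transcript (vertical axis, log scale), with 1 point for each of the 31 genes, SR in red and hnRNP in blue. Hnrnpa1 (6.41) and Hnrnpa3 (6.10) sit at 100% and at the low end of the levels. Hnrnpf lies at 91.9% (68.5), Srsf3 at 82.8% (211) and Hnrnpk at 63.8% (1002), and Srsf7 (1146) and Srsf12 (5.70) at 0%.

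As a group, the splicing factors were read somewhat more in the SVZ library than in the cortex library. The 11 SR genes together took 0.465% of gene-assigned reads in the SVZ (239112 reads) and 0.350% in the cortex (77116 reads), a log2 ratio of 0.41 (0.40 to 0.42). The 20 hnRNP genes took 0.969% (498506 reads) and 0.697% (153770 reads), a log2 ratio of 0.47 (0.47 to 0.48). These are differences of 1.33-fold and 1.39-fold. Hnrnpk alone gave 30.7% of the hnRNP reads in the SVZ and 28.5% in the cortex, and without it the hnRNP share was 0.672% and 0.499%, a log2 ratio of 0.43.

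All 31 genes averaged at least 10 CPM, a level that 9027 genes reached. By gene, 10 of the 11 SR genes and 17 of the 20 hnRNP genes had the higher CPM in the SVZ, 27 of 31 (87.1%), beside 55.2% of all genes past the same minimum. The 4 others, Srsf12, Hnrnpl, Hnrnpul1 and Hnrnpa0, were higher in the cortex, beside 44.8% of all genes. TMM, DESeq2 and upper-quartile scaling lowered every log2 ratio by 0.09 to 0.10 and brought the median of all genes from 0.10 to about 0. Under each of them 23 of 31 were higher in the SVZ, beside 50.3%, 50.2% and 50.0% of all genes. Hnrnpa1, Hnrnpa3, Hnrnpdl and Hnrnpul2 had crossed to the cortex side. The counting interval lay wholly above equal CPM for 24 members, 10 SR and 14 hnRNP, beside 49.8% of all genes, and wholly below it for 3, Srsf12, Hnrnpl and Hnrnpa0, beside 39.5%. The log2 ratio was above the median of all genes for 23 of 31 members, beside 50.0%.

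The shift was small for most genes. The median log2 ratio was 0.35 for the SR genes and 0.33 for the hnRNP genes, beside 0.10 for all genes, which leaves 0.25 and 0.23 relative to that median. The central range, from the lower to the upper quartile, ran from 0.26 to 0.55 for SR genes, from 0.05 to 0.52 for hnRNP genes and from -0.46 to 0.61 for all genes. The SD over genes was 0.79, 0.40 and 1.57, respectively. At least 2-fold differences were found in 3 of the 31 genes. Srsf9 and Hnrnpf were higher in the SVZ, 1 gene of each family, beside 14.9% of all genes, and Srsf12 was higher in the cortex, beside 12.3%. At a threshold of 1.5-fold, 6 were higher in the SVZ (Srsf2, Srsf6, Srsf9, Hnrnpc, Hnrnpf and Hnrnpm), beside 26.1% of all genes, and 2 in the cortex (Srsf12 and Hnrnpl), beside 21.2%. As shares of the 31 genes these were 6.45% and 3.23% at 2-fold and 19.4% and 6.45% at 1.5-fold. Just inside and outside the 2-fold line were Hnrnpf at 2.05-fold and Hnrnpm at 1.97-fold, and Hnrnpf fell short of the line, at a log2 ratio of 0.94, under each of the 3 scalings.

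**Figure D2:**
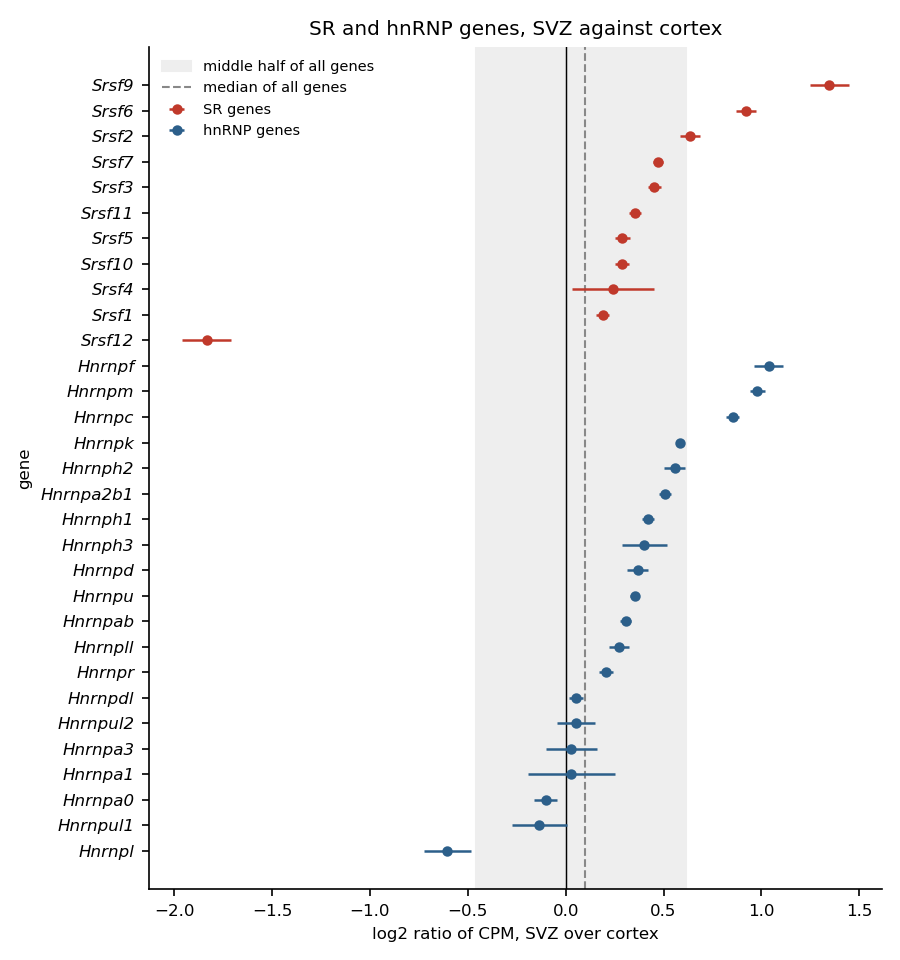
Log2 ratio of SVZ to cortex CPM (horizontal axis) for the 11 SR genes (red) and 20 hnRNP genes (blue), 1 point per gene from 1 library per area, with bars for the exact 95% counting interval, a dashed line at the median of all genes (0.10) and shading between the quartiles of all genes (-0.46 to 0.61). Most points lie right of 0, Srsf9 (1.35) and Srsf12 (-1.83) lie at the extremes, and Hnrnpa1, Hnrnpa3, Hnrnpdl and Hnrnpul2 change side under other scalings.

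Among the SR genes, Srsf12 stood alone in direction. It encodes a protein that has been described as an inhibitor of splicing which counteracts other SR proteins, and its gene spans chr4:33208991-33233340 (GRCm38, plus strand). Srsf12 had 861 reads (16.7 CPM) in the SVZ library and 1315 reads (59.6 CPM) in the shallower cortex library. It was therefore 3.56-fold higher in the cortex, at a log2 ratio of -1.83 (-1.96 to -1.71), and only 5.43% of genes past the minimum had a lower ratio. None of its 75-base windows occurred in another gene, and its ratio moved by less than its counting interval under the other scalings, the thinning of the SVZ library, the pseudocount and the other way of counting strand.

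Srsf9 gave the largest ratio in the other direction among all 31 genes. Its product, also known as SRp30c, is one of the smaller SR proteins and takes part in the nuclear response to heat shock. Srsf9 lies at chr5:115327177-115333080, plus strand, and had 5837 reads (113 CPM) in the SVZ and 984 reads (44.6 CPM) in the cortex. That is a log2 ratio of 1.35 (1.25 to 1.45), or 2.54-fold, and 89.6% of genes had a lower ratio. Srsf6 (SRp55), which has a pair of RNA recognition motifs, was next, with 332 and 175 CPM and a log2 ratio of 0.92 (0.87 to 0.97). Srsf2 (SC35), a protein of nuclear speckles, had 292 and 188 CPM and a log2 ratio of 0.64 (0.59 to 0.69).

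By the unstranded counts used here, the remaining 7 SR genes were all within 1.5-fold between the areas and all had the higher CPM in the SVZ. Srsf7 and Srsf3, which also act as adaptors for mRNA export, had 1192 and 860 CPM (log2 ratio 0.47) and 553 and 403 CPM (0.45). Srsf11, which promotes the inclusion of neuronal microexons, had 706 CPM in the SVZ and 553 CPM in the cortex, a log2 ratio of 0.35 (0.32 to 0.38). Srsf10, which turns into a repressor of splicing when dephosphorylated, had 508 and 416 CPM, and Srsf5 (SRp40) had 410 and 336 CPM, with a log2 ratio of 0.29 for each. Srsf1 (SF2/ASF), the founding member, was closest to equal among the SR genes, with 513 and 450 CPM and a log2 ratio of 0.19 (0.15 to 0.22). Srsf4, the SR gene with fewest assigned reads, had 709 and 257 reads (13.8 and 11.7 CPM), and its value is taken up with the ambiguous reads below.

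Among the hnRNP genes, the 3 past 1.5-fold in the SVZ bind different sequences. Hnrnpf, whose product binds runs of G, lies at chr6:117900324-117925622, plus strand, and had 8463 reads (165 CPM) in the SVZ and 1769 reads (80.2 CPM) in the cortex, a log2 ratio of 1.04 (0.96 to 1.11). Hnrnpm, which binds GU-rich sequences, had 30745 reads (598 CPM) and 6689 reads (303 CPM), a log2 ratio of 0.98 (0.94 to 1.02). Hnrnpc, whose product forms tetramers on U tracts and keeps U2AF from cryptic splice sites, had 41001 reads (797 CPM) and 9732 reads (441 CPM), a log2 ratio of 0.85 (0.82 to 0.88). The other G-run binders were nearer to equal than Hnrnpf. Hnrnph2 had 243 and 165 CPM (0.56), Hnrnph1 654 and 489 CPM (0.42) and Hnrnph3 49.0 and 37.1 CPM (0.40).

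Hnrnpl was the hnRNP gene furthest to the cortex side. Its product binds CA repeats and represses or activates exons by position, and the gene lies at chr7:28808541-28822266, plus strand. It had 1455 reads (28.3 CPM) in the SVZ and 948 reads (43.0 CPM) in the cortex, which is 1.52-fold higher in the cortex, at a log2 ratio of -0.60 (-0.72 to -0.48). Its paralogue Hnrnpll, known for the switch of Ptprc (CD45) exons in T cells, had 231 and 192 CPM and a log2 ratio of 0.27 (0.22 to 0.32), which puts it above equal CPM. The counting intervals of the paralogues did not overlap, but they cover counting error only. At this depth such intervals lay above equal CPM for 49.8% of all genes and below it for 39.5%.

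The A/B group was split between members near equal and members higher in the SVZ. Hnrnpa2b1, a reader of RNA trafficking elements, had 725 and 511 CPM and a log2 ratio of 0.51 (0.48 to 0.54). Hnrnpab, a related trafficking factor, had 715 and 578 CPM (0.31). Hnrnpa0, which binds AU-rich elements, had 150 and 161 CPM, a log2 ratio of -0.10 (-0.16 to -0.05). For Hnrnpa1, with 573 and 241 reads, the log2 ratio was 0.03 (-0.19 to 0.25), and for Hnrnpa3, with 1615 and 679 reads, it was 0.03 (-0.10 to 0.16). A difference was not detectable at this depth for either, and these are the genes whose coding windows all occur in at least 1 other gene.

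Hnrnpk, a poly(C)-binding protein with KH domains, was the most counted member, with 153057 reads (2976 CPM) in the SVZ and 43841 reads (1988 CPM) in the cortex, and its log2 ratio was 0.58 (0.57 to 0.60). Hnrnpu (SAF-A), which also attaches RNA to chromatin, had 1149 and 900 CPM and a log2 ratio of 0.35 (0.33 to 0.38). Its relatives Hnrnpul2 (58.3 and 56.2 CPM) and Hnrnpul1 (24.5 and 26.8 CPM) had log2 ratios of 0.05 (-0.04 to 0.15) and -0.13 (-0.28 to 0.01). A difference was not detectable at this depth and scaling for either, and Hnrnpul1 was at -0.23 under TMM, DESeq2 and upper-quartile scaling. Hnrnpd (AUF1), which binds AU-rich elements and regulates mRNA decay, had 223 and 173 CPM (0.37), and its relative Hnrnpdl had 401 and 386 CPM, a log2 ratio of 0.05 (0.02 to 0.09) that became -0.039 to -0.045 under the other scalings. Hnrnpr, which is found on axonal mRNA of motor neurons, had 462 and 400 CPM (0.21).

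Levels were next compared between genes per kilobase of the principal transcript. Srsf7 was first and Hnrnpk second in both libraries, at 1146 and 1002 CPM per kilobase in the SVZ and 827 and 669 in the cortex. They were followed in the SVZ by Hnrnpc (474), Hnrnpa2b1 (420), Hnrnpab (355) and Hnrnph1 (308). In the cortex the same genes followed in another order, Hnrnpa2b1 (296), Hnrnpab (287), Hnrnpc (262) and Hnrnph1 (230). The lower end lay between 5 and 7 CPM per kilobase in the SVZ, with Hnrnpul1 (6.46), Hnrnpa1 (6.41), Srsf4 (6.11), Hnrnpa3 (6.10) and Srsf12 (5.70). Srsf12 was 31st of 31 in the SVZ and 23rd in the cortex, where it reached 20.3 CPM per kilobase. The order of the 31 genes was otherwise close between the libraries (Spearman's rho 0.967 across genes, which are not replicates and share both libraries' preparation). The order depends on the transcript taken. With the union of all annotated exons as the length, Hnrnpk came first and Srsf7 second in both libraries, Srsf12 was 27th and Hnrnpul1 31st in the SVZ, Srsf1 moved from 17th to 10th in the SVZ, and Hnrnpa2b1 moved from 3rd to 10th in the cortex. Raising the minimum to 100 CPM left 22 members, of which 21 (all but Hnrnpa0) were higher in the SVZ, beside 57.9% of the 2409 genes at that level. Of these, 1 (Hnrnpf) passed 2-fold towards the SVZ, beside 9.63%, and 0 towards the cortex, beside 10.3%.

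**Figure D3:**
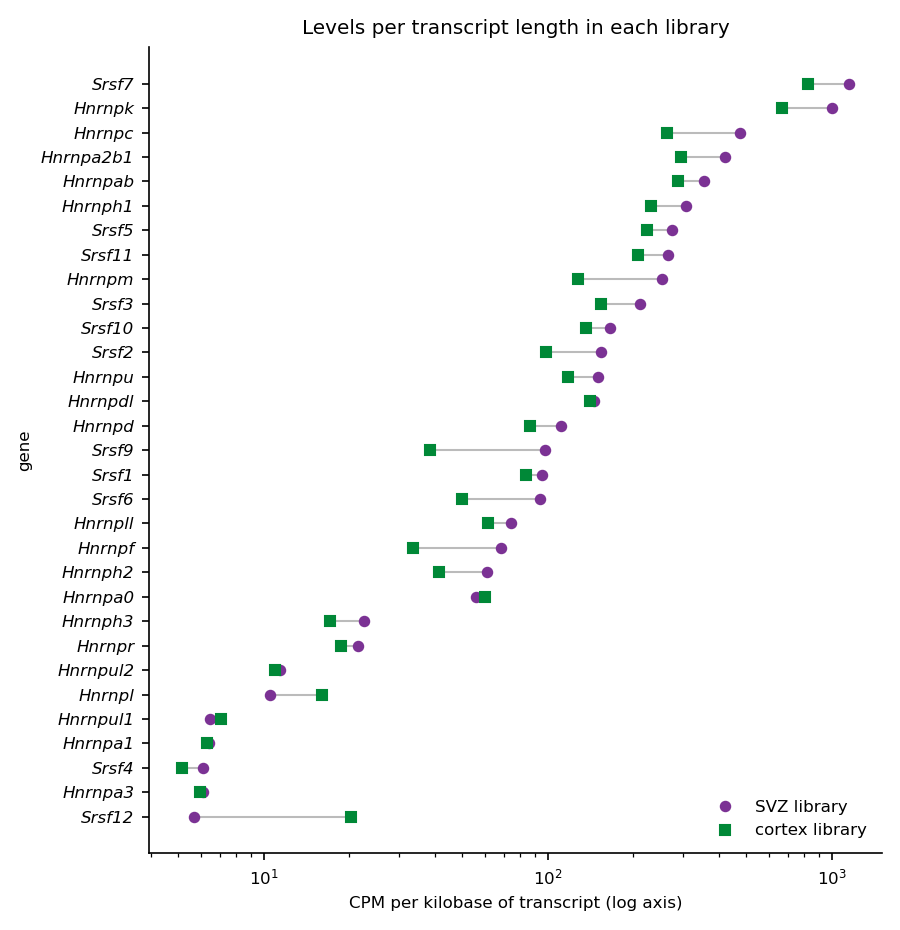
CPM per kilobase of principal transcript (horizontal axis, log scale) for each of the 31 members in the SVZ library (purple circles) and the cortex library (green squares), ordered by the SVZ value. Srsf7 (1146 and 827) and Hnrnpk (1002 and 669) lead, and Srsf12 (5.70 and 20.3) is last in the SVZ by this length, with its cortex value to the right.

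Reads that fall where genes overlap were set aside by the counting without strand. Counting the strands apart recovers those of opposite-strand overlaps, which added more than 1% to the SVZ reads of 4 members. Most affected was Srsf4, which overlaps the opposite-strand noncoding gene Gm12992. When the strands were counted apart and summed, Srsf4 had 4956 reads in the SVZ and 1404 in the cortex, 6.99 and 5.46 times its unstranded counts, and its log2 ratio rose from 0.24 (0.03 to 0.45) to 0.59 (0.51 to 0.68). The reads recovered, 4247 and 1147, were the same number for Gm12992 in each library, and reads of the partners cannot be told apart. Hnrnph3, which overlaps Rufy2 on the opposite strand, went from 2522 to 13843 reads in the SVZ and from 818 to 4214 in the cortex, with a log2 ratio of 0.49 (0.44 to 0.54) in place of 0.40 (0.29 to 0.52). Hnrnpk gained 7630 and 1950 reads shared with Rmi1, which is 1.05 and 1.04 times its count. Both Srsf4 and Hnrnph3 were higher in the SVZ by either count, and their levels given above leave these reads out. With the summed count Srsf4 and also Hnrnpk (log2 ratio 0.59, 0.57 to 0.60) passed 1.5-fold towards the SVZ, with intervals that reach below it. Reads from overlaps on the same strand stay set aside either way, and their number could not be seen. In the annotation Hnrnpm, for example, shares 1169 exon bases with March2 on its own strand.

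**Figure D4:**
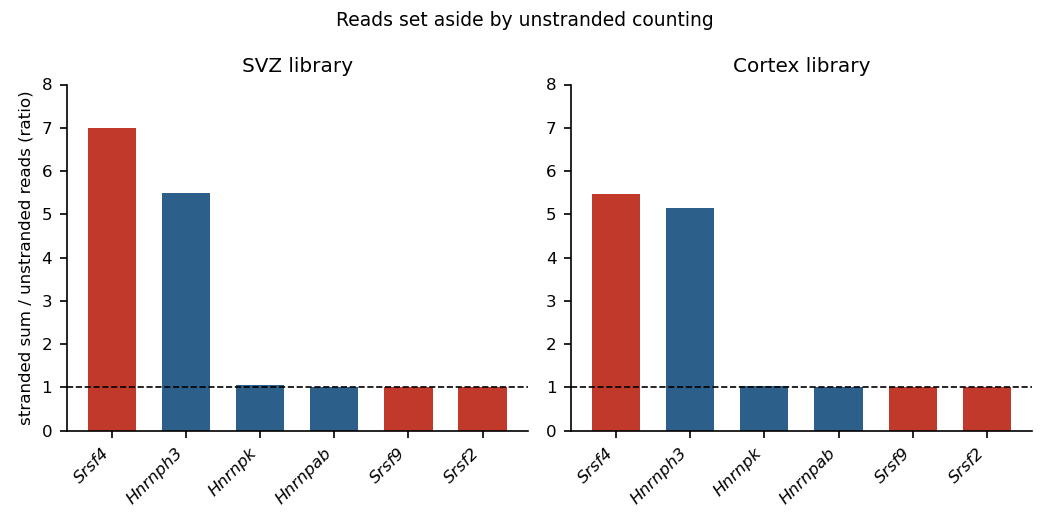
Reads with the strands counted apart and summed, divided by the unstranded count (vertical axis, ratio, dashed line at 1), for the 6 members with the highest ratio in the SVZ, in the SVZ library (left) and the cortex library (right). Srsf4 (6.99 and 5.46) and Hnrnph3 (5.49 and 5.15) stand apart, and Hnrnpk reached 1.05 and 1.04.

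These counts pool all transcripts of a gene, including those degraded by nonsense-mediated decay. SR genes and several hnRNP genes regulate their own level through such transcripts, in which a poison exon or a retained intron brings a premature stop. In the annotation, 9 of the 11 SR genes (81.8%) and 10 of the 20 hnRNP genes (50.0%) had at least 1 transcript of that class, beside 31.1% of 8544 other protein-coding genes past 10 CPM. Retained-intron transcripts were annotated for 72.7% of SR, 70.0% of hnRNP and 63.7% of other genes. Which of them the reads came from was not analysed here.

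The promoters of the 4 genes with the most extreme ratios of their family are printed to show what the 250 bases before their RefSeq start hold (GRCm38.p6, all plus strand, 5′ to 3′). The CCAAT box, on either strand (CCAAT or ATTGG), is in capitals. The windows are chr5:115326927-115327176 for Srsf9, chr4:33209022-33209271 for Srsf12, chr6:117906532-117906781 for Hnrnpf and chr7:28810640-28810889 for Hnrnpl. The RefSeq starts of Srsf12 and Hnrnpl lie 281 and 2349 bases downstream of the 5′ end of the principal transcript used above. That of Hnrnpf lies 67 bases upstream of it. The windows of Srsf12, Hnrnpf and Hnrnpl therefore fall within the gene spans given above.
Srsf9: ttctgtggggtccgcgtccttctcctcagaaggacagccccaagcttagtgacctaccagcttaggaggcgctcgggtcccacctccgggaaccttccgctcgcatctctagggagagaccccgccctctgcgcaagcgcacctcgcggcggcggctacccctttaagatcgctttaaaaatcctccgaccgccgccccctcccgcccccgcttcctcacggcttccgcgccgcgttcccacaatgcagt
Srsf12: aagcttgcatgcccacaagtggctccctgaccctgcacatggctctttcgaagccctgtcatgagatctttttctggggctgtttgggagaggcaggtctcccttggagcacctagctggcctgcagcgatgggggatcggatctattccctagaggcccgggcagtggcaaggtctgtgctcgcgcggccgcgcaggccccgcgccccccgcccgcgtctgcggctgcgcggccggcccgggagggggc
Hnrnpf: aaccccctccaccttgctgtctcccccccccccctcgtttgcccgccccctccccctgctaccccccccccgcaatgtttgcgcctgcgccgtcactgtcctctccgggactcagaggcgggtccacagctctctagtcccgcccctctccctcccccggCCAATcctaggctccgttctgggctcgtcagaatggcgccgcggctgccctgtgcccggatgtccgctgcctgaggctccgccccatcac
Hnrnpl: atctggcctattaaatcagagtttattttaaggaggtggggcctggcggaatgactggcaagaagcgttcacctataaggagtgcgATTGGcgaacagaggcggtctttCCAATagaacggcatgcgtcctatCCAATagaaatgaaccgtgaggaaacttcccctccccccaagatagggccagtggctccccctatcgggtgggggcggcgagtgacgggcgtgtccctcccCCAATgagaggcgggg

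Hnrnpl held 4 CCAAT boxes in this window and Hnrnpf 1, and none was found in Srsf9 or Srsf12. RefSeq gave 41 promoters for 29 of the 31 members, some genes having several. A CCAAT box was found in 17 of 27 hnRNP promoters (63.0%), from 13 of 18 genes, and in 3 of 14 SR promoters (21.4%), beside 35.7% of 9028 promoters of genes past 10 CPM and 33.8% of all 32851. The ETS motif CCGGAAG (either strand) showed the opposite order, in 6 of 14 SR promoters (42.9%) and 3 of 27 hnRNP promoters (11.1%), beside 14.8% and 6.91%. Promoters of 1 gene can overlap, as those of Srsf4 do. By gene, the ETS motif was found for 4 of 11 SR and 2 of 18 hnRNP genes, beside 1245 of 6997 genes past 10 CPM. The CCAAT box was found for 3 of 11 SR and 13 of 18 hnRNP genes, beside 2888 of 6997. TATAAA was found in 7.32% of the members' promoters, beside 5.88% and 12.4%, the NRF1 core GCGCATG in 9.76%, beside 6.32% and 3.24%, and TCGCGAG in 9.76%, beside 3.66% and 1.62%. The search covered both strands throughout, and a match describes the letters and not a bound site. The promoters were rich in CpG, with an observed over expected ratio of at least 0.6 in 40 of 41 (97.6%), beside 71.6% for genes past 10 CPM and 34.0% for all, and a median GC content of 68.0%, beside 60.4% and 52.4%.

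Related RNA-binding proteins were then taken from fixed lists, with the 3 highest and 3 lowest ratios of each named. Shared windows and gene overlaps were not looked at for these lists. Their counts are to be read against all genes, of which 55.2% were higher in the SVZ. By at least 2-fold, 14.9% were higher in the SVZ and 12.3% in the cortex. With TMM, DESeq2 and upper-quartile scaling, 50.3%, 50.2% and 50.0% of all genes were higher in the SVZ. The 2-fold shares were then 13.3%, 13.3% and 13.1% in the SVZ and 13.8%, 13.8% and 13.9% in the cortex. Of 15 other hnRNP-class genes past 10 CPM, 12 were higher in the SVZ and 3 in the cortex, with a median log2 ratio of 0.29. Under TMM, DESeq2 or upper-quartile scaling the counts became 9 and 6, since Ptbp2, Khsrp and Pcbp1, named after their values were seen, crossed to the cortex side. A 2-fold difference was reached by 3 in the SVZ and 0 in the cortex. Ptbp1 (hnRNP I), which represses neuronal exons in progenitors, had 3722 reads (72.4 CPM) in the SVZ and 326 reads (14.8 CPM) in the cortex, a log2 ratio of 2.29 (2.13 to 2.46). This exceeded the ratio of every Srsf and Hnrnp gene. Ptbp3 (1.26) and the mRNA-stabilising Elavl1 (1.17) followed, and Pcbp3 (-0.27), Pcbp4 (-0.20) and Syncrip (-0.04) were lowest. Ptbp2, the neuronal paralogue of Ptbp1, had 418 and 410 CPM, a log2 ratio of 0.03 (-0.01 to 0.06).

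Of 19 SR-related genes, which carry arginine-serine domains but are not named Srsf, 14 were higher in the SVZ and 5 in the cortex, also under the 3 other scalings, with a median of 0.25. A 2-fold difference was reached by 1, Scaf11 in the SVZ, and by 0 under those scalings. The highest were Scaf11 (1.00), Srek1 (0.97) and Acin1 (0.70), and the lowest Scaf1 (-0.62), Luc7l (-0.45) and Sfswap (-0.37). A further list held kinases that phosphorylate SR proteins, importins that carry SR and hnRNP proteins into the nucleus, and the arginine methyltransferase Prmt1. Its median was 0.15 over 11 genes, which is the ratio of Prmt1 itself, with 7 higher in the SVZ and 4 in the cortex, or 6 and 5 under the 3 other scalings. At least 2-fold higher in the SVZ was 1, Tnpo1, and 0 in the cortex, where Tnpo2 made it 1 under those scalings. Within that list the paralogous importins lay at opposite ends, Tnpo1 with 52.7 and 16.6 CPM (log2 ratio 1.67) and Tnpo2 with 26.3 and 51.5 CPM (-0.97). Clk3 (0.48) and Prpf4b (0.48) were the next highest, and Srpk2 (-0.46), an SR protein kinase, and Tnpo3 (-0.17), the importin of SR proteins, were the next lowest.

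**Figure D5:**
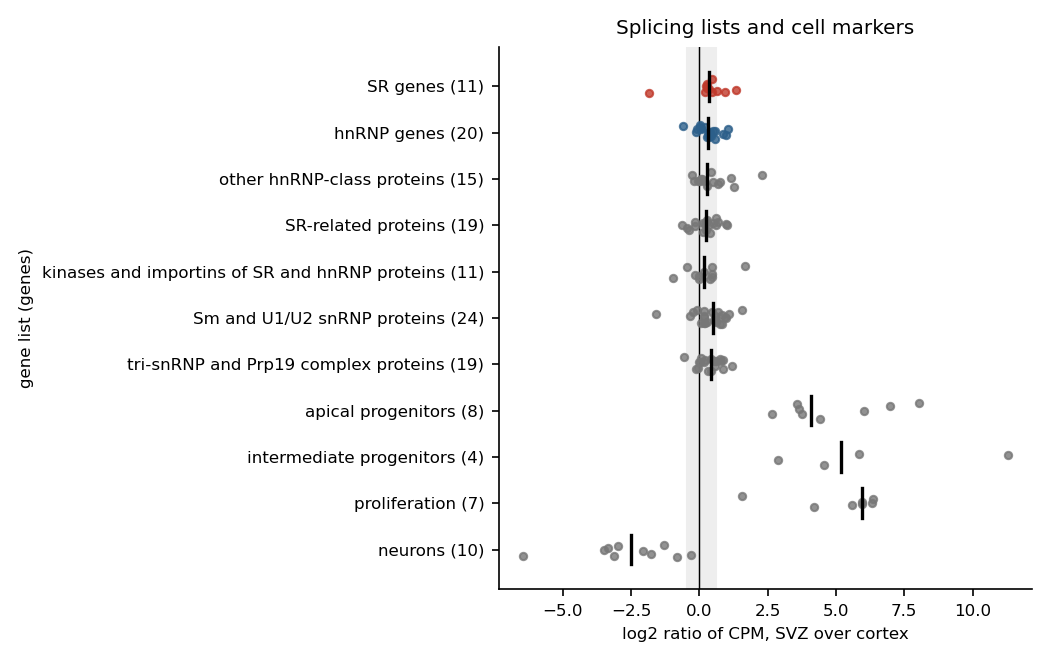
Log2 ratio of SVZ to cortex CPM (horizontal axis) for genes that averaged 10 CPM or more in the SR and hnRNP families, in 5 lists of related splicing genes and in 4 lists of cell markers, 1 point per gene, with a bar at each median and shading between the quartiles of all genes. Medians of the splicing lists ran from 0.15 for the kinases and importins (with Prmt1) to 0.50 for the Sm and U1/U2 snRNP proteins, while those of the markers ran from -2.52 for neurons to 5.95 for proliferation.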

How the data were processed

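The SVZ and cortex of embryonic day 16.5 mouse brain were measured with 1 library each. Per the study's methods, the authors trimmed reads with cutadapt 4.1, mapped read 1 to mm10 (the iGenomes build) with STAR 2.7.9a and deposited its counts per gene, which are whole reads, not normalized, in 3 columns per library. STAR leaves out multimapping reads and reads that overlap several genes. These were 8.20% and 1.44% of all reads in the SVZ and 6.89% and 1.28% in the cortex, and gene-assigned reads were 59.0% and 59.1%. The study names the library kit (NEBNext Single Cell/Low Input RNA), but on its strand and on the removal of duplicates the sources used here give nothing. A further table deposited by the authors, with CPM, fold changes and log10 changes from a spreadsheet, was not used.

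The unstranded counts were scaled here to CPM on the sum of gene-assigned reads, without the 4 summary lines, and no pseudocount was added. Ratios carry exact 95% Clopper-Pearson intervals. List counts used genes that averaged at least 10 CPM. With 1 library per area no p-value was computed. Every member may be named, and of each related list the 3 highest and 3 lowest ratios. The lists were other hnRNP-class proteins, SR-related proteins, kinases and importins with Prmt1, Sm and U1/U2 snRNP proteins, tri-snRNP and Prp19 complex proteins, and markers of cell types. Members and lists were chosen with earlier results of these data known. Positions, lengths and transcript classes came from GENCODE M21 and promoters from RefSeq (GRCm38.p6), matched by symbol (1 sequence is not reported here), while the authors' gene models were those of iGenomes. Protein sequences and pairs of paralogues by identity were not analysed here.

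Alternatives were size factors of DESeq2 1.42.0, upper-quartile and TMM scaling by edgeR 4.0.16, library totals less the 10 top genes of each, summed stranded counts, random thinning of the SVZ library to the depth of the cortex, 1 CPM added to both values, no minimum or 100 CPM, and 1.5-fold. edgeR and DESeq2 were used for scaling only, and their use on the related lists was chosen after seeing the data. Calculations were tested on simulated data and ran in Python 3.11.15 (scipy 1.17.1, numpy 2.4.6, matplotlib 3.10.9, pandas 2.3.3) and R 4.3.3.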

Additional observations from a re-analysis of the deposited data

How the results depend on the processing

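No paired analysis was possible because only 1 library was made per area, so that no replicate could be left out either. TMM and DESeq2 scaling each lowered the median log2 ratio of the SR genes from 0.35 to 0.26 and of the hnRNP genes from 0.33 to 0.24, and upper-quartile scaling to 0.25 and 0.23. The log2 ratios of the summed shares fell from 0.41 to 0.32 (SR) and from 0.47 to 0.38 (hnRNP) with TMM or DESeq2, and to 0.31 and 0.38 with the upper quartile. Under these 3 scalings 0 hnRNP genes in place of 1 were at least 2-fold higher in the SVZ, and Hnrnpdl turned to the cortex side (-0.039 with TMM and DESeq2, -0.045 with the upper quartile). Totals without the most counted genes gave medians of 0.32 (SR) and 0.30 (hnRNP) and shares of 0.38 and 0.44. With these totals 25 of 31 members were higher in the SVZ, beside 53.5% of all genes, since Hnrnpa1 and Hnrnpa3 crossed to the cortex side. A minimum of 100 CPM gave medians of 0.40 and 0.39 and left 0 SR genes past 2-fold in either direction, in place of 1 in each. At 1.5-fold, 3 SR and 3 hnRNP genes were higher in the SVZ and 1 hnRNP gene in the cortex. Summed stranded counts raised the SR median to 0.45, through Srsf4. Thinning the SVZ library and a pseudocount of 1 CPM moved no member's ratio by more than its interval, although thinning took Hnrnpa1 across equal CPM. The scalings moved most ratios out of their intervals. Under TMM and under DESeq2 this held for 21 of 31 members besides Hnrnpdl, and under upper-quartile scaling for 23 besides Hnrnpdl. With totals less the top genes it held for 9, and with summed stranded counts for 1. The intervals of Hnrnpa1, Hnrnpa3, Hnrnpul1 and Hnrnpul2 include equal CPM in the main setting. For Hnrnpul1 the scaling matters too, since its log2 ratio was -0.23 under each of the 3 scalings.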

Other observations

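Genes of the core spliceosome, on which SR and hnRNP proteins act, were counted in the same way. Beside them, 55.2% of all genes were higher in the SVZ, 14.9% at least 2-fold so, and 12.3% were at least 2-fold higher in the cortex. With TMM, DESeq2 and upper-quartile scaling, 50.3%, 50.2% and 50.0% of all genes were higher in the SVZ. Of 24 Sm and U1/U2 snRNP genes that averaged 10 CPM or more, 20 were higher in the SVZ and 4 in the cortex, with a median log2 ratio of 0.50, and 2 and 1 differed by at least 2-fold. Under TMM, DESeq2 or upper-quartile scaling 19 and 5 were higher, since Sf3b3 changed side. The subunits of U2AF, which reads the 3′ splice site, lay on opposite sides, U2af1 with 13063 and 1913 reads (254 and 86.8 CPM, log2 ratio 1.55) and U2af2 with 696 and 379 reads (13.5 and 17.2 CPM, -0.35). Of the SF3A subunits of the U2 snRNP, Sf3a3 had 216 and 100.5 CPM (1.10), Sf3a2 had 8.32 and 25.3 CPM (-1.60), and Sf3a1, named after its value was seen, had 105 and 92.2 CPM (0.18). Snrpb (0.96), a core Sm protein, was also among the highest and Sf3b4 (-0.25) among the lowest. Of 19 tri-snRNP and Prp19 complex genes, 15 were higher in the SVZ and 4 in the cortex, with a median of 0.42, or 13 and 6 under those scalings, where Prpf38a and Txnl4a changed side. These and Sf3b3 are named after their values were seen. A 2-fold difference was reached by 1, in the SVZ. Prpf4 (1.19), Snrnp40 (0.88) and Prpf31 (0.87) were highest, and Prpf19 (-0.57), Eftud2 (-0.14) and Snrnp200 (-0.06) lowest. These values come from 1 library for each area and have no replicate check. Shared windows and gene overlaps were not looked at for these lists, so reads lost that way, for U2af2 or Sf3a2 for example, are unknown.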
